A study of Mus musculus with 30 samples.

Results

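The genes described here are 10 genes of activated microglia and of the phagocyte lysosome, namely Trem2, Clec7a, Lag3, Cd52, Mpeg1, Lyz2, Ctss, Ctsz, Grn and Cd68. All 10 were found by symbol among the 16995 genes of the deposited table. They were chosen by their known roles at a time when the differences between stroke and sham animals in these data were already known. Cd52, Trem2, Lag3, Grn, Mpeg1, Lyz2 and Clec7a also stand in the cluster of early upregulated genes that the study built from these animals. The differences of the 10 genes from sham are therefore a description, with no p value for a single gene. Counts of calls among them only set the 10 genes beside all genes and are not independent evidence of a change. RNA was sequenced from the intermediate laminae of the cervical spinal cord (C5/C6), on the side that had lost its input from the right sensorimotor cortex. All animals were adult female C57BL/6 mice, perfused with Ringer's solution before dissection. In 5 groups a photothrombotic stroke was made, in which light through the skull activates a dye and clots the cortical vessels, and tissue was taken at 4, 7, 14, 28 or 42 d post-injury (dpi). The sham group (Ctrl in the labels) was operated on without illumination. Each group is labelled with 5 animals, which the study had picked on quality scores from a larger number operated. Values were used for 29 of the 30 labelled animals, because 1 animal at 4 dpi had no column, so that group held 4. The paper states that it dropped 1 sample at 4 dpi, an outlier in its testing of differential expression. The 4 dpi group was thus narrowed after expression had been seen.

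Microglia are the resident macrophages of the CNS. When axons or their terminals degenerate, microglia change shape, take up debris and express a set of genes for recognition, engulfment and digestion. Surface receptors such as Trem2 and Dectin-1 (encoded by Clec7a) bind lipids or carbohydrates and signal through tyrosine kinases, and what is taken up is broken down in lysosomes by proteases and glycosidases. Several of these genes are shared with other macrophages and with blood monocytes. In bulk tissue RNA, more cells of a type and more RNA of a gene per cell cannot be told apart.

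Microglial and macrophage genes are commonly bound by PU.1, the product of Spi1, and lysosomal genes by TFEB and related factors. The start regions of 8 of the 10 genes were therefore searched on both strands for GAGGAA, the core of PU.1 sites, for CACGTG, the core of the sites of TFEB, and for CATGTG, which MITF and TFE factors also bind. The windows are RefSeq sequences of build GRCm38.p6 and run from 250 bases before to 50 bases after the start of the gene, 300 bases in all. Cd52 and Lag3 were not searched. GAGGAA occurred in 5 of the 8 windows (Trem2, Clec7a, Ctss, Grn and Cd68) and in 28.3% of all 32851 windows of this length. CACGTG occurred in 0 of the 8 and in 7.15% of all windows. CATGTG occurred in 2 of the 8 (Ctss and Grn) and in 14.2% of all windows. The matches in the 8 windows did not overlap each other. A match of so few letters is a description of the sequence and not evidence of binding. The windows of 4 genes are printed 5′ to 3′ in the direction of transcription, with matches in capitals (GAGGAA or its reverse complement TTCCTC, and CATGTG or its reverse complement CACATG). Clec7a is shown for its difference at 4 dpi on the log2 scale, Mpeg1 because it followed the other genes closely and holds no match, and Ctss and Grn because they hold matches to both motifs. They lie at chr6:129472730-129473029 on the minus strand (Clec7a), chr19:12460520-12460819 on the plus strand (Mpeg1), chr3:95526536-95526835 on the plus strand (Ctss) and chr11:102430257-102430556 on the plus strand (Grn).
Clec7a: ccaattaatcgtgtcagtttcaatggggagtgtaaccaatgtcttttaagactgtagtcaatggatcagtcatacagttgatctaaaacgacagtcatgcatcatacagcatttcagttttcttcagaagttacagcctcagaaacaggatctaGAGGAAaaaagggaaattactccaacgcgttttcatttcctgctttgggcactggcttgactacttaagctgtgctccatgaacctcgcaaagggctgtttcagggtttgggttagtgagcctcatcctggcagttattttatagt
Mpeg1: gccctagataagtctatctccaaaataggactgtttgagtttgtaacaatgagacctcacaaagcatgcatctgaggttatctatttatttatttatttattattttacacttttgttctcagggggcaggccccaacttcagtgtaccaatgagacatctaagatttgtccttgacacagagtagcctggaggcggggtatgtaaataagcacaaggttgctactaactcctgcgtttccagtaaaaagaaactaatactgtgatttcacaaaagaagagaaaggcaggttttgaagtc
Ctss: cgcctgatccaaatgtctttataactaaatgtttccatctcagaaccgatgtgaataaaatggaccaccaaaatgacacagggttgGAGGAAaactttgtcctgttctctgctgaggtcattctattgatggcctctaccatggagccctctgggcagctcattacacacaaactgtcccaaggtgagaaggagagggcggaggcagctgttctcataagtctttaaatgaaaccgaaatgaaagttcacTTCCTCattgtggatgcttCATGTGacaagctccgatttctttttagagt
Grn: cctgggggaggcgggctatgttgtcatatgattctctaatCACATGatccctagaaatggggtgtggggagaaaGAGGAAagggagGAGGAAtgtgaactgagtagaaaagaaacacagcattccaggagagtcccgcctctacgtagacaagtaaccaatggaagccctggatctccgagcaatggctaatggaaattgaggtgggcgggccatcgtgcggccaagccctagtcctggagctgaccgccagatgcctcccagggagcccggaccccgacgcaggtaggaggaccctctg

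Values are normalized counts-per-million values (CPM), rounded to 0.1 by the authors. Read counts were not used here, so the depth behind a value is unknown. The tissue carried the markers of spinal cord in every animal, with Snap25 (neurons) between 1157 and 1916, Mbp (oligodendrocytes) between 1777 and 3832, Aqp4 (astrocytes) between 273.9 and 422.8 and Hoxc6 (cervical and thoracic cord) between 11.6 and 19.7. Residual ribosomal RNA differed between animals, with Rn18s-rs5 between 18295 and 817780. In 2 of the 14 dpi animals, 4 of the 28 dpi animals and 4 of the 42 dpi animals the values summed to over 1000000 (called rRNA-rich animals here), and in 0 animals of the sham, 4 dpi and 7 dpi groups. Ribosomal RNA and time after stroke can therefore hardly be told apart at 28 and 42 dpi, where the remaining group without these animals is 1 animal each (A4-1 and A1-3). The animal labels also carry a unit number, whose meaning they do not give. Each group holds animals of 2 units and only unit 3 occurs in 2 groups, and the correlation between animals of the same unit within groups was -0.044 over all genes (limma). Values below are given on the scale as deposited, differences are in log2(value + 0.5), and each comparison against sham uses the same 5 sham animals.

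Per kilobase of exon, the sham animals had most RNA of the lysosomal proteases. Their mean was 13.3 ± 1.08 CPM per kb for Ctss and 8.99 ± 0.815 for Ctsz (SD, n = 5). It was 3.87 ± 0.18 for Grn, 2.1 ± 0.367 for Lyz2, 1.53 ± 0.225 for Mpeg1 and 1.1 ± 0.335 for Cd68. The receptors and surface proteins were lower, at 0.655 ± 0.109 for Trem2, 0.332 ± 0.0581 for Lag3, 0.27 ± 0.125 for Cd52 and 0.0682 ± 0.0494 for Clec7a. Lengths are the merged exons of GENCODE M21, 4.946 kb for Trem2 and 1.257 kb for Cd68, and not the length of 1 transcript. The order of the genes depends on them. Before division the sham mean of Trem2 was 3.24 CPM, above those of Lyz2 (2.76) and Cd68 (1.38). Some of these values can include reads of other genes. Of the 31-base words of Lyz2, 32.8% also occur in Lyz1, and of those of Cd52, 10.4% occur in Crybg2, which overlaps it on the opposite strand. Grn, Ctsz and Ctss overlap Fam171a2, Nelfcd and Hmgb1-ps5, and the library kit did not keep the strand.

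At 4 dpi the mean of all 10 genes was above that of the sham group, with log2 differences between 0.56 (Ctsz) and 1.77 (Clec7a) and a median of 0.80, where the median of all genes was 0.01. The test used was limma on log2(value + 0.5), and genes were called at a Benjamini-Hochberg limit of 0.05 if they also differed by more than 1.5-fold. Mpeg1 and Cd52 were called higher, 2 of the 10, where 0.0824% of all genes were called higher. In 7 of the 10 (Trem2, Clec7a, Mpeg1, Grn, Lag3, Cd52 and Ctss) every 4 dpi animal lay above every sham animal, which was so for 1.09% of all genes. The number called was 0 without animal A10-4 or without A9-4, 5 without A9-2, and 1 without any of 17 other animals, because Cd52 lay close to the limit.

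**Figure D1:**
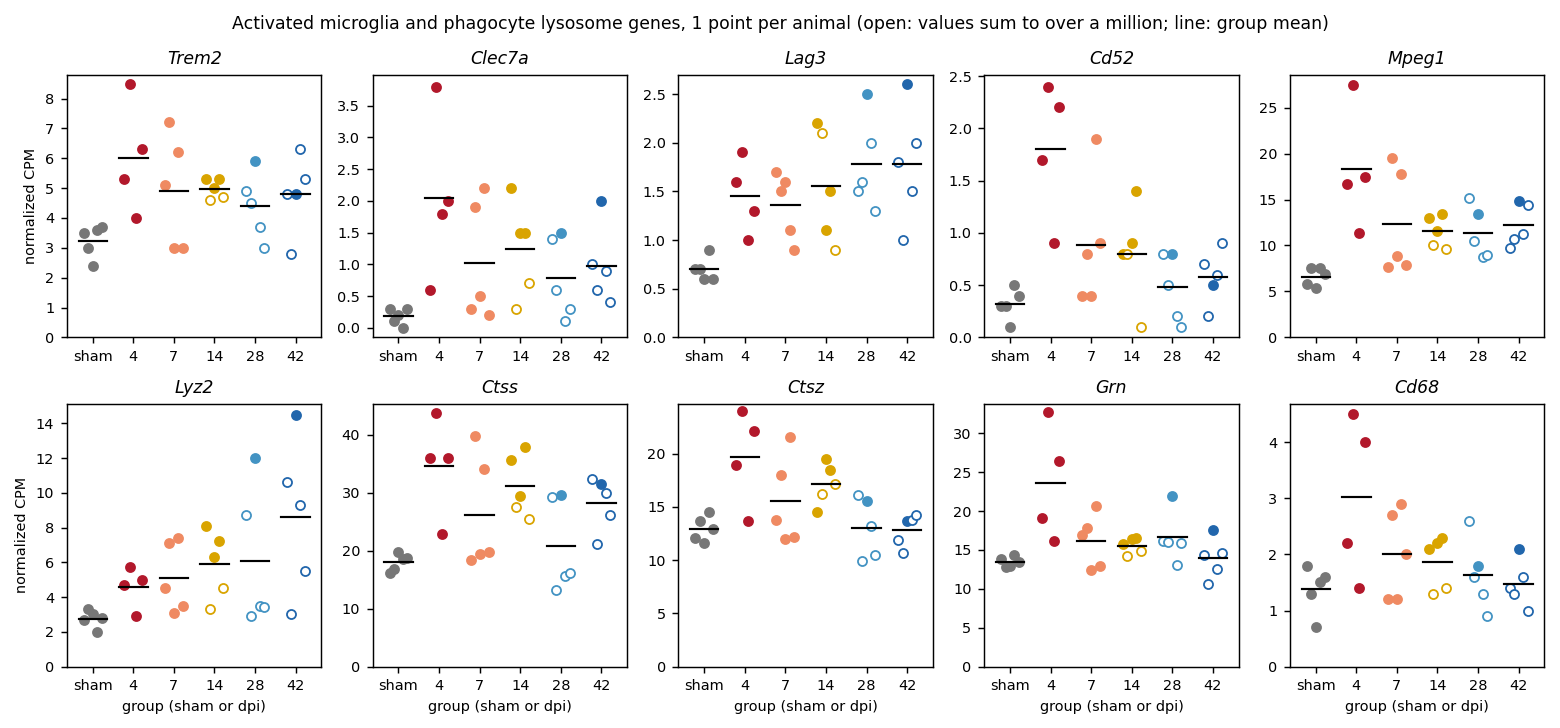
Normalized CPM of each of the 10 genes (y axis, a scale per gene) in each animal, by group (x axis, sham or dpi); the line is the group mean and open points are animals whose values sum to over 1000000. At 4 dpi the highest point in every panel is animal A10-4, and at 28 and 42 dpi the single filled point lies above the group mean in 10 of 10 panels at 28 dpi and in 8 of 10 at 42 dpi.

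Trem2 is a lipid-binding receptor of microglia that signals through Tyrobp. Its value was 3.5, 3.0, 2.4, 3.6 and 3.7 CPM in the sham animals and 5.3, 8.5, 4.0 and 6.3 at 4 dpi. The groups did not overlap, and the lowest 4 dpi animal (A9-2) lay only slightly above the highest sham animal. The difference was 0.77 ± 0.22 (SE). Later ranges of Trem2 were 3.0 to 7.2 (7 dpi), 4.6 to 5.3 (14 dpi), 3.0 to 5.9 (28 dpi) and 2.8 to 6.3 (42 dpi). All 14 dpi animals lay above all sham animals, while the 7, 28 and 42 dpi groups overlapped them.

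Clec7a encodes Dectin-1, a receptor for fungal glucans that is used as a marker of activated microglia. It was nearly silent in sham animals, at 0.3, 0.1, 0.2, 0.0 and 0.3 CPM, and was 0.6, 3.8, 1.8 and 2.0 at 4 dpi. All 4 stroke animals were above all sham animals, and the difference of 1.77 ± 0.42 had the widest error of the 10. The sham values are at most 3 rounding steps, so the size of this difference depends on the added constant, and it was 1.27 with 1 and 3.23 with 0.05 added. At 42 dpi Clec7a was 1.0, 0.6, 2.0, 0.9 and 0.4, again above all sham animals, with a difference of 1.05 ± 0.40. At 7, 14 and 28 dpi the ranges were 0.2 to 2.2, 0.3 to 2.2 and 0.1 to 1.5, and each overlapped the sham range.

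Lag3, a surface protein that binds MHC class II and is best known from T cells, had its highest group means at later times. Its value was 0.7, 0.7, 0.6, 0.9 and 0.6 CPM in the sham animals and 1.6, 1.9, 1.0 and 1.3 at 4 dpi, a difference of 0.68 ± 0.21. It was 1.5, 1.6, 2.5, 2.0 and 1.3 at 28 dpi, and the 42 dpi animals had 1.8, 1.0, 2.6, 1.5 and 2.0. At these 3 time points all stroke animals lay above all sham animals. The means at 28 and 42 dpi were both 1.78, with log2 differences from sham of 0.91 ± 0.20 and 0.89 ± 0.20. Of the T cell genes, Cd3e, Cd3g, Lck and Cd2 have no row in the table, while Cd3d, Cd4 and Cd8a do. In sham, 4 dpi, 28 dpi and 42 dpi animals the means were 1.16, 1.075, 1.6 and 1.46 CPM for Cd3d. For Cd8a they were 1.0, 1.25, 1.46 and 1.3, and for Cd4 they were 0.62, 0.55, 0.8 and 1.0. None of these 3 was called at any time, their ranges overlapped those of sham, and their part in the values of Lag3 was not tested.

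Cd52 encodes a small glycoprotein of the surface of leukocytes. It was 0.3, 0.3, 0.1, 0.5 and 0.4 CPM in the sham animals and 1.7, 2.4, 0.9 and 2.2 at 4 dpi, a difference of 1.45 ± 0.31. The groups did not overlap. The call of Cd52 held in 15 of 38 other settings, and at 4 dpi its difference was positive in all of them. At 28 dpi the values were 0.8, 0.5, 0.8, 0.2 and 0.1, a range that includes the whole sham range, and the difference was 0.21 ± 0.29.

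Mpeg1 encodes perforin-2, a pore-forming protein of the phagosome. It was 5.8, 7.5, 5.4, 7.5 and 6.9 CPM in the sham animals and 16.7, 27.5, 11.4 and 17.5 at 4 dpi, a difference of 1.34 ± 0.23. Mpeg1 was the only one of the 10 genes in which every stroke animal at every time point lay above every sham animal. At 7 dpi the lowest animal (7.7) was barely above the highest sham animals (7.5). The values at 28 dpi were 15.2, 10.5, 13.4, 8.7 and 9.0, a difference of 0.72 ± 0.22 that was called, and those at 42 dpi were 9.7, 10.7, 14.8, 11.3 and 14.4, a difference of 0.83 ± 0.22 that was not. The call at 4 dpi held in 36 of 39 other settings and was lost without A10-4 or A9-4.

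Lyz2 encodes lysozyme M, which digests bacterial cell walls and is made by macrophages, monocytes and neutrophils. It was 2.7, 3.3, 3.0, 2.0 and 2.8 CPM in the sham animals and 4.7, 5.7, 2.9 and 5.0 at 4 dpi, with overlap and a difference of 0.62 ± 0.36. Its mean was 5.12 ± 2.01 at 7 dpi (SD, n = 5) and 5.88 ± 1.96 at 14 dpi, and later 6.1 ± 4.06 (28 dpi) and 8.58 ± 4.48 (42 dpi). The values at 28 dpi were 8.7, 2.9, 12, 3.5 and 3.4 and those at 42 dpi were 10.6, 3.0, 14.5, 9.3 and 5.5. At 28 dpi 2 animals and at 42 dpi 3 animals stood above the others. At both times the highest value was that of the animal with the least Rn18s-rs5 of its group. At 42 dpi this animal (A1-3) still had 78737 CPM of Rn18s-rs5, above the sham range of 30321 to 52929. The difference at 42 dpi, 1.32 ± 0.34, was the largest of the 10 genes at that time but was not called.

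Ctss and Ctsz encode cathepsins S and Z, cysteine proteases of the lysosome, of which cathepsin S also trims the invariant chain of MHC class II. Ctss was 16.1, 16.9, 19.7, 18.6 and 18.7 CPM in the sham animals and 36.0, 43.8, 22.9 and 35.9 at 4 dpi, without overlap and with a difference of 0.89 ± 0.22. It was 35.7, 27.5, 29.4, 37.9 and 25.4 at 14 dpi, and the 28 dpi animals had 29.3, 13.2, 29.6, 15.7 and 16.2. The 14 dpi animals all lay above the sham animals, and so did those at 42 dpi, which lay between 21.1 and 32.4, while 3 of 5 animals at 28 dpi lay within or below the sham range. Ctsz was 12.1, 13.7, 11.6, 14.5 and 12.9 in the sham animals and 18.9, 24.0, 13.7 and 22.1 at 4 dpi, with 1 animal (A9-2) inside the sham range. Its difference from sham was 0.56 ± 0.16 at 4 dpi, 0.39 ± 0.15 at 14 dpi and close to 0 at 28 dpi (-0.01 ± 0.15) and 42 dpi (-0.01 ± 0.15).

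Grn encodes progranulin, a secreted and lysosomal precursor of granulins that is needed for lysosome function. Its sham values were the most even of the 10, at 13.8, 12.8, 12.9, 14.3 and 13.5 CPM, and it was 19.1, 32.7, 16.1 and 26.4 at 4 dpi. All stroke animals were above all sham animals, with a difference of 0.74 ± 0.16 that was not called, although it was called in 6 of 39 other settings. Cd68 encodes macrosialin, a glycoprotein of the late endosome and lysosome membrane that is widely used to stain phagocytes. It was 1.8, 1.3, 0.7, 1.5 and 1.6 in the sham animals and 2.2, 4.5, 1.4 and 4.0 at 4 dpi, with overlap and a difference of 0.84 ± 0.27. At 42 dpi both were near sham, with differences of 0.03 ± 0.15 for Grn and 0.08 ± 0.25 for Cd68.

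At 7 dpi all 10 means were still above sham, with differences between 0.22 (Ctsz) and 0.95 (Clec7a) and a median of 0.54. None was called, where 0.0% of all genes were called higher, and by limma 7 of the 10 had an unadjusted p under 0.05, as did 5.84% of all genes. Only Mpeg1 was above all sham animals, where this was so for 0.388% of all genes. The mean log2 values of red cell genes were also above sham at this time, 5 of 5 with a median difference of 0.53, none called and 1 with an unadjusted p under 0.05. Their summed value was 6.8 to 15.7 CPM in sham animals and 13 to 22.7 at 7 dpi, and every 7 dpi animal was above every sham animal for Hbb-bs, a chain of hemoglobin (5.6 to 8.6 against 2.6 to 5.4). Their part in the 7 dpi values of the 10 genes was not tested. The 7 dpi animals fell apart in these genes, since A7-3 and A8-1 had the 2 highest values of 8 of the 10 genes. At 14 dpi all 10 means were above sham with a median difference of 0.67, and Trem2, Mpeg1 and Ctss lay above all sham animals (1.11% of all genes). No gene was called, where 0.0% of all genes were called higher, and 7 of the 10 had an unadjusted p under 0.05, as did 11.6% of all genes. Without the 2 rRNA-rich animals of this group, 9 of the 10 lay above all sham animals, and so did 3.78% of all genes.

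At 28 dpi 9 of the 10 means on the log2 scale were above sham, with a median difference of 0.32, and Ctsz was level with sham. Lag3 and Mpeg1 were called higher, 2 of the 10, and 4.15% of all genes were called higher at this time. These 2 genes were also the ones above all sham animals, where 6.15% of all genes were. Neither call was made when ribosomal RNA was a covariate, although the differences then were 1.07 for Lag3 and 0.93 for Mpeg1, or when every animal was scaled to the same sum (0.40 and -0.026). In the same-sum scale the median of all genes at 28 dpi was -0.73, 9 of the 10 genes lay above that median, and the 2 calls among the 10 were lower values of Ctsz and Ctss, where 65.0% of all genes were called lower. The lone animal with little ribosomal RNA (A4-1) had the highest value in 7 of the 10 genes, and it lay above all sham animals in 9 of them and in 25.9% of all genes. Against sham it differed by 1.95 ± 0.36 in Lyz2, by 1.58 ± 0.63 in Clec7a and by 1.33 ± 0.30 in Lag3, the SE being taken from the spread of the other groups. At 42 dpi 9 of the 10 means on the log2 scale were above sham with a median difference of 0.55. None was called, where 0.0118% of all genes were called higher, and 6 had an unadjusted p under 0.05, as did 14.8% of all genes. Clec7a, Mpeg1, Lag3 and Ctss lay above all sham animals, where 2.21% of all genes did. Animal A1-3 alone lay above them in 8 of the 10 and in 25.1% of all genes.

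**Figure D2:**
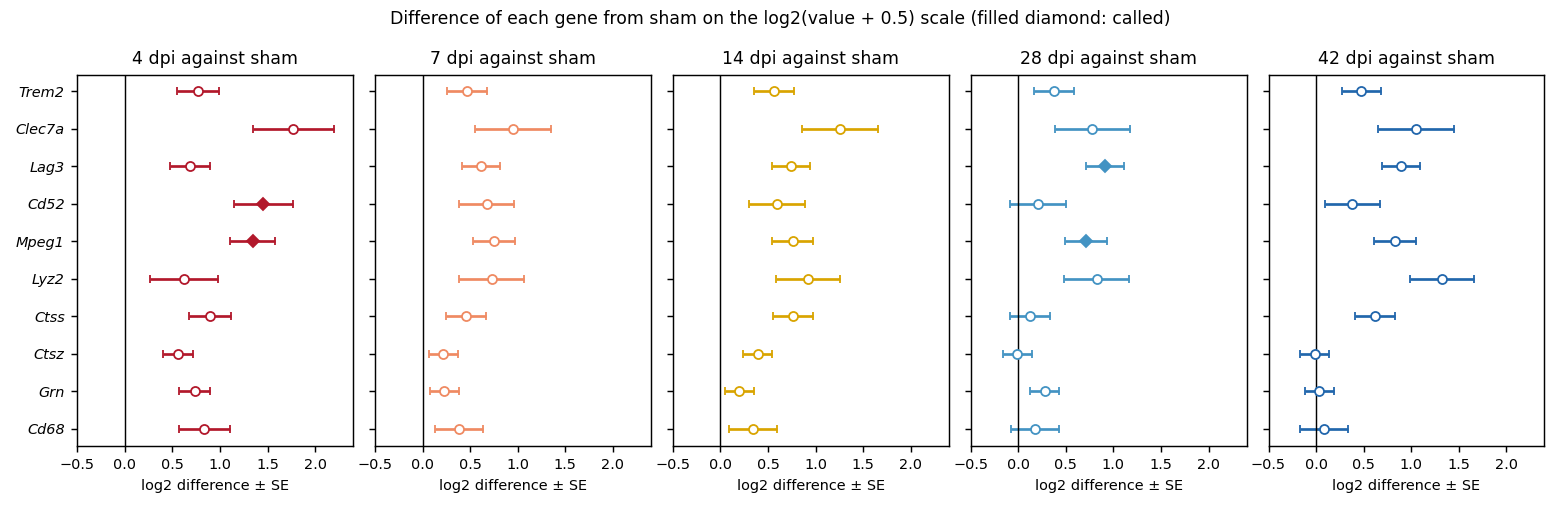
Log2 difference of each gene from sham with its standard error (x axis), by gene (y axis) and time point (panels); filled diamonds are the called genes. All 10 points lie right of 0 at 4, 7 and 14 dpi, while at 42 dpi Ctsz, Grn and Cd68 lie between -0.01 and 0.08 and Lyz2 at 1.32.

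For 7 of the 10 genes the order of the group means in CPM began at 4 dpi and ended at sham, and Ctsz also had its highest mean at 4 dpi but its lowest at 42 dpi. Lag3 had the same highest mean at 28 and 42 dpi, and Lyz2 was highest at 42 dpi. Groups that stood next to each other in these orders overlapped in all cases but the last step of Mpeg1, from 28 dpi to sham. Of the steps between time points, none of the 10 genes was called between 4 and 7 dpi, 7 and 14 dpi, or 28 and 42 dpi. From 14 to 28 dpi Ctss was called lower by 0.64 ± 0.21 on the log2 scale, 1 of the 10, and 4.22% of all genes were called lower at this step. From 4 to 28 dpi Cd52 and Ctss were called lower, 2 of the 10, against 1.45% of all genes. Cd52 fell by 1.25 and Ctss fell by 0.77 on the log2 scale, with SEs of 0.31 and 0.22. The call of Cd52 was made in all 33 other settings, and that of Ctss between 4 and 28 dpi in 29 of 34. Lag3 and Lyz2 were 0.22 ± 0.21 and 0.21 ± 0.36 above 4 dpi at 28 dpi, and these differences were not called.

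The 10 genes also varied together between animals of the same group. The study clustered genes over single animals, so such variation was part of what grouped those of the 10 in its early cluster. The values of r are therefore a description too. After subtraction of group means, Pearson's r of the 45 pairs ranged from 0.157 to 0.844 over 29 animals, with a median of 0.671. The points share the scaling of each animal, and no p and no r of pairs of other genes is given. Ctss and Lyz2 formed the pair with the highest r. Lag3 was the most loosely tied, with a median r of 0.326 to the other genes. At 4 dpi animal A10-4 was highest in 10 of the 10 genes and A9-2 lowest in 9, and their means over the 10 genes on the log2 scale were 1.46 and 0.47 above the sham mean. At 42 dpi A1-3, the animal with the least Rn18s-rs5 of its group, was highest in 6 genes and A1-2 lowest in 7.

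**Figure D3:**
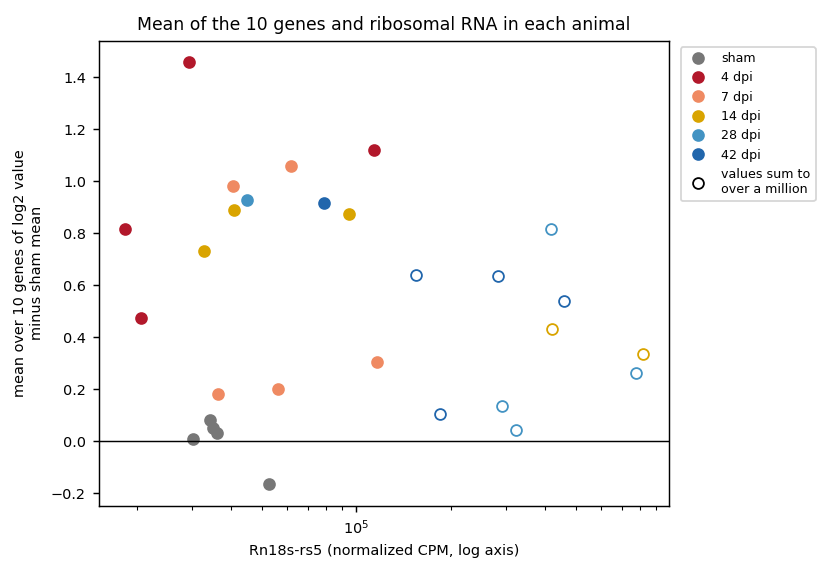
Mean over the 10 genes of the log2 value minus the sham mean (y axis) against Rn18s-rs5 in normalized CPM (x axis, log scale), 1 point per animal and coloured by group; open points are animals whose values sum to over 1000000. The 5 sham animals lie between -0.17 and 0.08, the 4 dpi animals between 0.47 and 1.46, and the open points between 0.04 and 0.82.

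Within groups the 10 genes were also set beside Aif1, which encodes Iba1, a marker of microglia and macrophages, and beside Rn18s-rs5. All 10 correlated positively with Aif1, with Pearson's r between 0.355 and 0.644 and Spearman's rho between 0.28 and 0.577 (n = 29, 100000 permutations within groups). Of the 20 relations computed, r passed the Benjamini-Hochberg limit for Cd52 (r = 0.644, adjusted permutation p = 0.0218), Ctss (r = 0.582, 0.0218), Lag3 (r = 0.571, 0.0341), Lyz2 (r = 0.54, 0.0415) and Trem2 (r = 0.525, 0.0341) with Aif1. By rho, none of the 20 passed, and the lowest adjusted permutation p was 0.0632. The raw permutation p of r was 0.00145 for Cd52, 0.00218 for Ctss, 0.00683 for Lag3, 0.0104 for Lyz2 and 0.00533 for Trem2. Without the 2 animals farthest from the median of Aif1, r with Aif1 lay between 0.284 and 0.532. The number of relations that passed was 0 without the 4 dpi animals or without the 28 dpi animals. With Rn18s-rs5, r lay between -0.441 (Lyz2) and -0.0852 (Trem2), and 0 of the 10 relations passed, 1 of them with a raw permutation p under 0.05. The scaling of each animal is shared here too. Over all other genes the median r with Aif1 was 0.0179, and 1.02% of them had an r of at least 0.525, the lowest of the 5. With every animal scaled to the same sum that median was 0.69, and with Rn18s-rs5 it was -0.798. Aif1 itself was low, between 0.5 and 1.0 CPM in sham animals, and its r with Rn18s-rs5 within groups was -0.358.

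**Figure D4:**
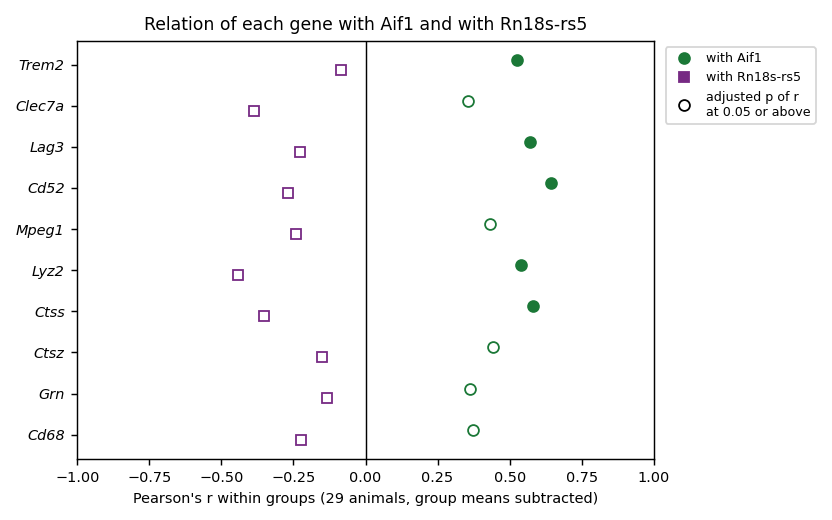
Pearson's r within groups (x axis) of each gene (y axis) with Aif1 (circles) and with Rn18s-rs5 (squares) over 29 animals; filled symbols passed the Benjamini-Hochberg limit. All 10 circles lie right of 0, 5 of them filled, and all 10 squares lie left of 0, none filled.

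Other genes around the 10 were taken from lists of known function. The first list held 15 genes, mostly adaptors, kinases and other signalling proteins of the Trem2 and Dectin-1 pathways, together with Spi1 and the inhibitory receptor Cd33, and 14 were measured. At 4 dpi 14 of 14 were higher than sham with a median difference of 0.50, and none was called, while 10 had an unadjusted limma p under 0.05, as did 5.14% of all genes. Tyrobp, the adaptor of Trem2, was 2.92 ± 0.743 CPM in sham (SD, n = 5) and 6.7 ± 2.16 at 4 dpi (n = 4), a difference of 1.04 ± 0.32. Vav1, an exchange factor below Syk, differed by 0.88 ± 0.21 and Ptpn6, a phosphatase that ends such signals, by 0.74 ± 0.24. At 28 dpi the median of the 14 was 0.19, and none was called. Laptm5, a lysosomal membrane protein of immune cells, was the 1 gene called among 66 measured of 68 other lysosomal genes at 4 dpi. It rose from 7.52 ± 1.18 to 14.7 ± 3.6 CPM (log2 difference 0.91 ± 0.18, limma, Benjamini-Hochberg adjusted p = 0.0355). Without animal A10-4, A9-4 or any of 4 sham animals it was not called.

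By their median, the remaining lysosomal genes lay nearer to sham than the 10 genes. The 10 were chosen with the stroke differences known, so this contrast is a description. At 4 dpi 46 of the 66 were higher and 20 lower, with a median difference of 0.08. Ifi30, a thiol reductase, differed by 0.89 ± 0.22 and was not called. The cathepsin genes Ctsh and Ctsc differed by 0.568 ± 0.153 and 0.536 ± 0.135, much like Ctsz (0.56 ± 0.16). Neither was called, and both were named after their values were seen. At 28 dpi 44 of the 66 were lower, with a median of -0.13. None was called because no change exceeded 1.5-fold, but 21 were lower and 3 higher with an adjusted p under 0.05. The same limit was passed by 24.9% of all genes at this time, 2206 of them lower and 2024 higher. Npc2, a cholesterol carrier of the lysosome, and Ctsl, cathepsin L, were among the lower ones, with differences of -0.37 ± 0.09 and -0.39 ± 0.11, and were named after their values were seen. Their adjusted p (limma) was 0.00701 and 0.0145. In the same-sum scale 58 of the 66 were called lower at 28 dpi, where 65.0% of all genes were.

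Of 17 other genes of activated microglia, 16 were measured and 13 were higher than sham at 4 dpi, with a median difference of 0.15 and none called (9 with an unadjusted limma p under 0.05). Ccl6, a chemokine, was 0.38 ± 0.11 CPM in sham and 2.05 ± 0.981 at 4 dpi. Itgax, the integrin CD11c, was at most 0.1 in sham animals and between 0.5 and 1.3 at 4 dpi. Neither passed the test. Lpl, lipoprotein lipase, was called at 28 dpi, at 21.0 ± 6.31 against 13.04 ± 1.32 CPM (log2 difference 0.63 ± 0.13, limma, adjusted p = 0.0021), and was not called without sham animal A12-3, without A3-3 or with ribosomal RNA as a covariate.

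Genes of resting microglia were higher at 4 dpi as well. All 15 measured genes of this list had a positive difference, with a median of 0.45, and 3 were called, where 0.0824% of all genes were called higher. Scaled to the same sum, 0 of the 15 were called at 4 dpi. P2ry12 and Tmem119 differed by 0.254 ± 0.127 and 0.252 ± 0.145 at 4 dpi and were not called. Both were named after their values were seen. Fcrls, an Fc receptor-like gene of microglia, rose by 1.05 ± 0.20 (limma, adjusted p = 0.0223). Olfml3, a secreted matrix protein, rose by 0.76 ± 0.13 (adjusted p = 0.00915), and Csf1r, the receptor on which microglia depend for survival, rose by 0.74 ± 0.13 (adjusted p = 0.00915). These 3 genes and Laptm5 are members of the study's early cluster, so the counts are not independent evidence of the direction. None of the 3 was called without A10-4, and 5 genes of the list were called without A9-2. At 42 dpi 10 of the 15 were higher, with a median of 0.07, and Fcrls differed by -0.22 ± 0.19. The paper also names Csf1r among markers of disease-associated microglia.

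**Figure D5:**
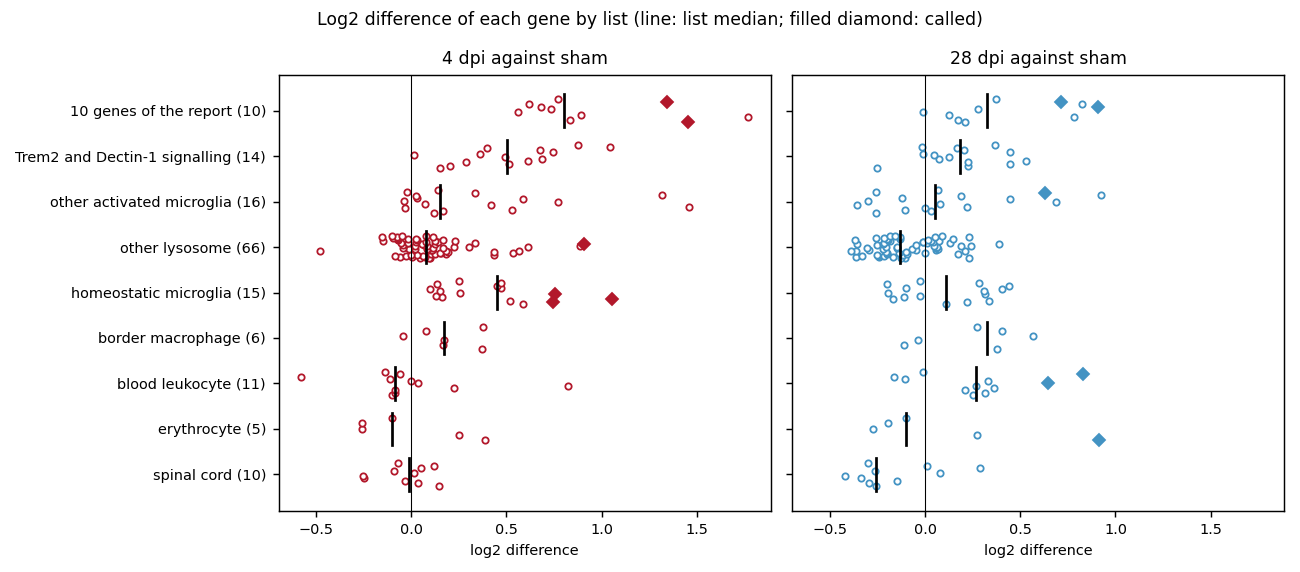
Log2 difference from sham of each measured gene (x axis) by list (y axis, with the number of genes) at 4 dpi (left) and 28 dpi (right); the black line is the list median and filled diamonds are called genes. At 4 dpi the medians of the 10 genes (0.80), of Trem2 and Dectin-1 signalling (0.50) and of homeostatic microglia (0.45) lie right of the other lists, and at 28 dpi the lysosomal and spinal cord medians lie at -0.13 and -0.26.

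Other cells that could carry the 10 genes were covered by lists in part. Of 10 genes of border macrophages, 6 were measured and none was called at any time, and Lyve1, Pf4, Cbr2 and Clec10a have no row in the table. Their summed value was 13.3 to 18.7 CPM in sham animals and 16.5 to 25.0 at 4 dpi. Stab1, a scavenger receptor, differed by 0.38 ± 0.13 at 4 dpi, Cd163 by 0.37 ± 0.21 and Mrc1 by 0.17 ± 0.20. Of 29 genes of blood leukocytes, 11 were measured, and the neutrophil genes S100a8, S100a9, Ngp, Camp and Ltf have no row. Their summed value was 32.5 to 42.7 in sham animals, 32.9 to 40.5 at 4 dpi and 37.3 to 51.6 at 28 dpi. None was called at 4 dpi, where Csf3r, a receptor that microglia also express, differed by 0.82 ± 0.18. At 28 dpi Ms4a1 (0.83 ± 0.20, limma, adjusted p = 0.00531) and Cxcr2 (0.65 ± 0.13, adjusted p = 0.00215) were called. Neither was called with ribosomal RNA as a covariate or on the same-sum scale. In the settings other than the same-sum scale the differences lay between 0.597 and 1.297 for Ms4a1 and between 0.534 and 0.774 for Cxcr2.

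Red cell genes gave 0 of 5 calls at 4 dpi, with 2 higher and 3 lower than sham and differences between -0.26 and 0.39. Hbb-bs and Hba-a2 differed by -0.26 ± 0.59 and -0.26 ± 0.53. The summed value of the 5 genes was 5.6 to 32.8 CPM at 4 dpi and 6.8 to 15.7 in sham animals. Alas2, the enzyme of heme synthesis, was called at 28 dpi (0.91 ± 0.20, limma, adjusted p = 0.00238) but not with ribosomal RNA as a covariate or on the same-sum scale. In the settings other than the same-sum scale its difference lay between 0.726 and 1.061. None of the 10 spinal cord markers was called. Mbp differed by -0.25 ± 0.15 at 4 dpi and Aqp4 by 0.15 ± 0.08. The part of blood, border macrophages and ribosomal RNA in the values of the 10 genes was not tested.

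Over all 29 animals, the genes outside the 10 whose course was most like the mean of the 10 (z-scores of log2 values, among 15483 genes with a mean of at least 1) were C1qa, Laptm5, Itgb2, Csf1r and Fcer1g. Their r was 0.882, 0.874, 0.873, 0.871 and 0.869, and within groups it was 0.844, 0.811, 0.917, 0.814 and 0.845. C1qa encodes a chain of complement C1q and was 10.4 ± 1.11 CPM in sham, 20.6 ± 5.77 at 4 dpi and 13.4 ± 2.22 at 42 dpi. Itgb2, the beta chain of leukocyte integrins, and Fcer1g, an adaptor of Fc receptors and of Dectin-2, were 1.86 ± 0.182 and 1.06 ± 0.251 in sham and 3.75 ± 1.17 and 2.17 ± 0.881 at 4 dpi. Among the 10 genes themselves, r to the mean of the other 9 was highest for Mpeg1 (0.906) and Trem2 (0.89) and lowest for Lyz2 (0.645) and Lag3 (0.475).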

How the data were processed

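Expression in the intermediate laminae was measured by RNA-seq in 29 mice (4 at 4 dpi, 5 in each other group), grouped by the sample labels. Reads had been assigned by the authors to transcripts of mm10 (SALMON 0.8.1), summed per gene (Tximport 1.0.3) and normalized with edgeR (3.14.0 per the submitters' processing notes) under R 3.4.1, removing genes with low expression. The deposited values are a score, namely this normalized CPM rounded to 0.1, for 16995 genes. They are not counts, so the depth is unknown and counting error cannot be stated. The authors' fold changes and p values in the table were not used.

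Groups were compared with limma 3.58.1 (R 4.3.3) on log2(value + 0.5), with 1 mean per group, a mean-variance trend and Benjamini-Hochberg adjustment over all genes. Differences of low genes are understated on this scale. The method was tested on simulated data. Relations within groups used 100000 permutations (Python 3.11.15, numpy 2.4.6, pandas 2.3.3, scipy 1.17.1). The 10 genes, the gene lists and the tests were chosen with earlier results of these data known. Named genes of a list are those called against sham at any time, filled up to 3 with the largest differences at 4 dpi, and the 5 genes most like the mean of the 10; 2 genes that this rule names are not reported here. Exon lengths, overlaps and shared words are from GENCODE M21, in which all 10 genes were found. Leaving out animals whose values sum to over 1000000 (rRNA-rich animals) was an alternative chosen after seeing the data.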

Additional observations from a re-analysis of the deposited data

Results flagged for a closer look

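The following differences between time points passed the test of the difference itself (limma over all genes with Benjamini-Hochberg adjustment and the limits given above), given as log2 differences. The 10 genes were chosen with results of these animals known, and Cd52 stands in the study's early cluster, so these differences remain a description. Of all genes, 1.45% were called lower from 4 to 28 dpi and 4.22% from 14 to 28 dpi. Cd52 differed by -1.25 between 4 and 28 dpi, with 4 animals at 1.7, 2.4, 0.9 and 2.2 CPM and 5 at 0.8, 0.5, 0.8, 0.2 and 0.1. Ctss differed by -0.77 between 4 and 28 dpi and by -0.64 between 14 and 28 dpi. In both steps 2 of the 5 animals at 28 dpi (A3-1 and A4-1, at 29.3 and 29.6 CPM) lay among the earlier animals, and the other 3, at 13.2 to 16.2, lay below all of them. The Ctss call from 14 to 28 dpi was not made without A5-1, A6-2, A3-3, A4-3 or A4-4, and that from 4 to 28 dpi was not made without A3-3, A4-3, A10-1, A10-4 or A9-4. Of the 5 animals at 28 dpi, A4-1 was the only one that was not rRNA-rich, and the part of ribosomal RNA in this difference was not tested. Of 60 groups of values of the 10 genes, 0 held an animal that stood apart from the others of its group by Dixon's test, which flags about 1 in 20 by chance.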

How the results depend on the processing

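The limits of these values are the rounding to 0.1, the unknown depth and the ribosomal RNA that differs between the groups. The cause of each change listed here was not tested. Among the 10 genes, the 2 calls at 4 dpi became 1 with 0.05 added, with only genes of mean 1 or more, or without the trend, and 0 without the rRNA-rich animals, none of which is in these groups, so that the differences of Mpeg1 and Cd52 stayed at 1.34 and 1.45, while the count was 3 with values scaled to the same sum (Clec7a added) and with the unit block. The 2 calls at 28 dpi became 0 with ribosomal RNA as a covariate, and without those animals both were lost and 1 other gene (Lyz2) was called. The count of 0 at 14 dpi became 1 when the 2 groups were fitted alone, and that at 42 dpi became 2 likewise, 2 with the unit as a random block, 1 with the covariate and 1 without those animals. The Ctss call from 14 to 28 dpi was lost (0) with quantile normalization. From 4 to 28 dpi the count of 2 became 1 with the filter on the mean and 8 with values scaled to the same sum, which from 4 to 42 dpi gave 5 in place of 0, all lower. The share of all genes called lower at these steps on that scale is not given here. Against sham it was 65.0% at 28 dpi, so these counts are no result about the 10 genes. In the same-sum scale all genes had a median difference of -0.48, -0.73 and -0.52 at 14, 28 and 42 dpi. On that scale the called difference of Mpeg1 at 28 dpi turned to -0.026, 7, 3 and 6 of the 10 genes were higher than sham at 14, 28 and 42 dpi, and 10, 9 and 9 lay above the median of all genes. None of the 10 was then above all sham animals at 7, 14, 28 or 42 dpi (0, against 1, 3, 2 and 4), while quantile normalization gave 6 at 14 dpi, and leaving out the rRNA-rich animals gave 9, 9 and 8 at 14, 28 and 42 dpi (of all genes 3.78%, 25.9% and 25.1%, the last 2 groups being 1 animal each).

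In the lists, scaling to the same sum gave 4 calls of Trem2 and Dectin-1 signalling genes at 28 dpi, 2, 1 and 11 of activated microglia at 4, 14 and 28 dpi, 0 and 58 of lysosomal genes at 4 and 28 dpi, 0 and 7 of homeostatic genes at 4 and 28 dpi, and 2 of border macrophages, 1 of leukocytes, 2 of red cells and 9 of spinal cord at 28 dpi. Of these calls at 28 dpi, 1 of an activated microglia gene was higher and the others were lower, while those of the scale as deposited were higher. With the covariate, activated microglia, leukocytes and red cells gave 0 at 28 dpi, and they also gave 0 without the rRNA-rich animals, which at 4 dpi left 0 lysosomal and 1 homeostatic gene. A fit of only the 2 groups gave 1 activated, 0 lysosomal and 1 homeostatic gene at 4 dpi. Without the trend 0 lysosomal genes were called at 4 dpi. At 28 dpi 0.05 added gave 2 activated and 1 border macrophage gene, the unit block gave 2 activated genes, and 1 leukocyte gene at 4 dpi, and the filter on the mean left 1 leukocyte gene. The 5 relations with Aif1 became 2 with quantile normalization, 10 with values scaled to the same sum, where 10 relations with Rn18s-rs5 also passed and the median r of all genes moved as well, and 0 without the 4 dpi animals, without the 28 dpi animals, or without the rRNA-rich animals and the rest of the 28 and 42 dpi groups.

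When each animal was left out in turn, the number called among the 10 genes ranged from 0 to 5 at 4 dpi, 1 to 3 at 28 dpi and 0 to 1 at 42 dpi. It ranged from 0 to 1 from 14 to 28 dpi, 1 to 6 from 4 to 28 dpi and 0 to 2 from 4 to 42 dpi. The number above all sham animals ranged from 1 to 2 at 7 dpi and from 3 to 6 at 14 dpi. Counts of list genes ranged from 0 to 1 for signalling at 4 and 28 dpi, 0 to 2 for activated microglia at 28 dpi, 0 to 3 for lysosome and 0 to 5 for homeostatic microglia at 4 dpi, 0 to 1 for border macrophages at 28 dpi, and 0 to 1 and 1 to 2 for leukocytes at 4 and 28 dpi. No paired analysis was possible because the animals of different groups share no replicate number.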
